A study of Mus musculus with 2 samples.

Results

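The genes described here encode surface and adhesion proteins that are used to stage erythroblasts, the nucleated precursors of red cells, or that bind them to the macrophage at the centre of an erythroblastic island. They are Kit, Cd44, Itga4, Itgb1, Cd24a, Cd36, Maea, Bsg, Cd9 and Cd81, taken by symbol, and make up 10 of the 43346 Ensembl genes in the deposited tables, with 43 of the 129984 transcript rows. Poly(A)-selected RNA was sequenced as paired ends from Ter119-positive cells of mouse fetal liver at day 14.5 of gestation, from pooled male and female embryos. The labels name no genotype, strain or treatment, and the single group holds 2 libraries, called library 1 and library 2 after their biological replicate numbers. They share 1 donor entry and have a biosample each. The labels number them as biological replicates, but how much of their spread is biological and how much technical cannot be told. Cells were selected for Ter119, an antigen that erythroid cells gain as they mature, so the selection did not take cells that still lacked it. The libraries held 51190552 and 44256272 counts, of which globin genes left 14155918 and 12299432 for all other genes, and globins made up 86.0% and 84.4% of TPM.

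Erythroid progenitors depend on the receptor tyrosine kinase KIT and lose it as they mature, while the hyaluronan receptor CD44 declines over the later divisions, which is why both serve as stage markers in flow cytometry. The integrin of the alpha 4 (Itga4) and beta 1 (Itgb1) chains holds erythroblasts to VCAM-1 on the island macrophage, and MAEA, first described as the erythroblast macrophage protein, has been placed at the same contact. CD24, basigin (CD147), CD36 and the tetraspanins CD9 and CD81 are further surface proteins of red cell precursors or of the cells around them. The values below are levels of RNA and not of protein on the cell surface.

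The 10 genes spanned a wide range of levels, though far below the globins Hba-a1 and Hbb-bs, from among the more abundant messages to a single read. Basigin (Bsg) and Cd24a stood far above the rest, Cd81, Maea, Itga4 and Itgb1 lay between 1 and 10 TPM, and Cd44, Cd36, Kit and Cd9 lay near or under 0.1 TPM. TPM is a relative transcript abundance scaled to the same total in each library and corrected for transcript length. At 1 TPM or more in both libraries, 6 of the 10 were detected, against 10.4% of all 43346 genes and 4296 of the 21474 protein-coding ones. Together the 10 genes summed to 1234 ± 42.2 TPM (SD, n = 2), and Bsg and Cd24a made up 99.0% of that sum in library 1 and 98.8% in library 2. Of the 9 pairs of neighbours in the order of mean TPM, 7 were separated, with both libraries of the higher gene above both of the lower. The exceptions were Cd44 with Cd36 and Cd36 with Kit, whose libraries overlapped. With 2 libraries a gene an exact permutation test could not reach 0.05, so no test of these differences in level is given.

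**Figure D1:**
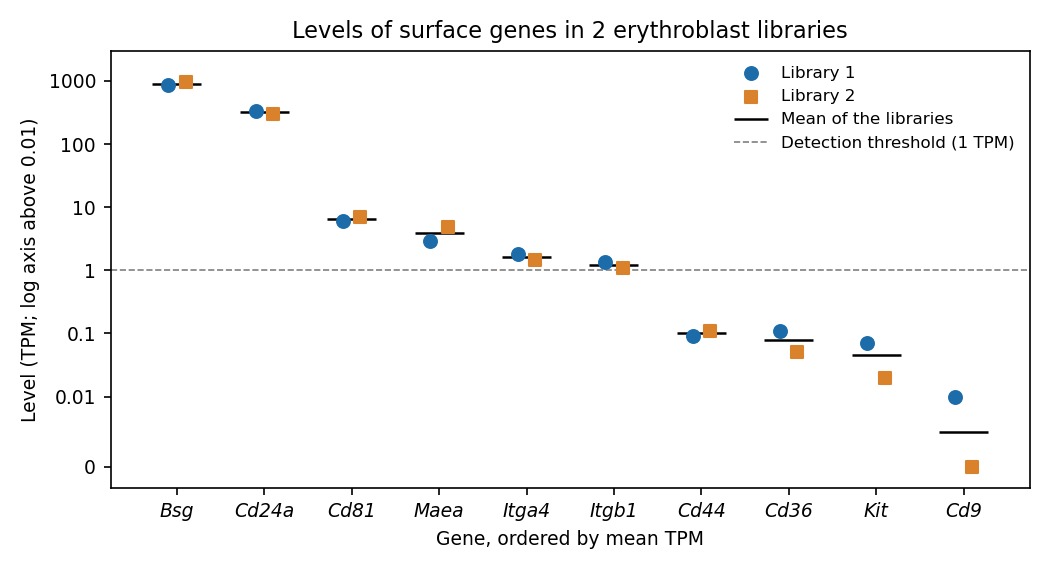
Level of each gene in TPM (vertical axis, logarithmic above 0.01 and linear below) in library 1 (circles) and library 2 (squares), with the mean as a bar and the 1 TPM threshold as a dashed line. Bsg and Cd24a lie at 303 TPM or more in each library, and Cd44, Cd36, Kit and Cd9 at 0.11 TPM or less.

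Bsg, which encodes an immunoglobulin-family glycoprotein that escorts monocarboxylate transporters to the membrane, was the most abundant of the 10. The gene lies on chromosome 10 at 79704491 to 79711969 of mm10, and reached 854 TPM (92976 counts) in library 1 and 946 TPM (80506 counts) in library 2, or 900.0 ± 64.8 TPM (SD, n = 2). It ranked 18 and 19 among the protein-coding genes by TPM. Nearly all of this was the short form, transcript Bsg-205, which took 98.1% of Bsg TPM in library 1 and 98.0% in library 2. The long form Bsg-201 carries a further exon of 348 coding bases at chr10:79708697-79709044, which encodes an additional immunoglobulin-like domain, and took 0.18% and 0.17%, from 203 and 169 expected counts. A retained-intron transcript, Bsg-206, accounted for 1.66% and 1.88%. The exon junctions that set the forms apart are shown because they carry this difference, 5′ to 3′ on the plus strand from GENCODE transcripts, with the bases of the downstream exon in capitals.
Bsg-205, exon ending at 79704584 joined to exon starting at 79709671: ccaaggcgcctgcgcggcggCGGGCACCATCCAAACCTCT
Bsg-201, exon ending at 79704584 joined to the further exon: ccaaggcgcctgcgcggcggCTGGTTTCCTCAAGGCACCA
Bsg-201, the further exon joined to exon starting at 79709671: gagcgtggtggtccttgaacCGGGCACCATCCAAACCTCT

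The partners and relatives of basigin were present at much lower levels than Bsg itself. Of 10 such genes 7 were at 1 TPM or more in both libraries, with a median of 10.4 TPM. Neuroplastin (Nptn), a close relative, had 38.3 and 33.3 TPM. The amino acid transporter chain Slc7a5 had 13.0 and 41.6 TPM, and the monocarboxylate transporter Slc16a1 had 18.9 and 14.5 TPM. Slc16a3, another transporter that travels with basigin, had 8.75 and 8.94 TPM. By scaled counts it was 1.18 times higher in library 1 (adjusted exact binomial p = 1.60e-08), so its direction depends on the unit.

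Cd24a encodes a short GPI-anchored, heavily glycosylated protein known as heat-stable antigen. It lies on chromosome 10 at 43578284 to 43584265 and had 337 TPM (55192 counts) in library 1 and 303 TPM (38710 counts) in library 2, or 320.3 ± 24.4 TPM (SD, n = 2). Both libraries lay below Bsg, whose mean was 2.81 times higher, and both lay far above Cd81, the next gene, by 48.7 times in mean TPM. All reads fell to Cd24a-201, the 1 transcript listed for the gene, whose coding part is only 228 bases. Of the genes listed as binding partners of CD24, only Hmgb1, a chromatin protein that binds CD24 outside the cell, was at 1 TPM or more in both libraries, with 100.4 and 72.2 TPM. The lectin gene Siglecg had 2 and 1 counts and the selectin gene Selp 4 and 3.

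The tetraspanins Cd81 and Cd9, often studied as a pair, lay far apart in level. These 4-pass membrane proteins gather integrins and other partners into membrane domains. Cd81 (chromosome 7, 143052739 to 143067934) had 6.03 TPM (821 counts) in library 1 and 7.11 TPM (757 counts) in library 2, or 6.57 ± 0.764 TPM (SD, n = 2), all of it on the coding transcript Cd81-201. Cd9 (chromosome 6, 125460266 to 125494791) had 1 count in library 1, on a processed transcript, and 0 in library 2, which allows up to 3 counts or 0.0678 CPM. Its coding transcript Cd9-201 had 0 counts in both libraries.

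Cd81 was not the leading tetraspanin of these cells. In a list of 27 tetraspanin genes that includes Cd81 and Cd9, Cd81 was 4 in the order of mean TPM, with 3.42% and 3.93% of the summed tetraspanin TPM. Tspan33, a tetraspanin known from erythroid progenitors, came first at 101 and 104 TPM, followed by Cd82 at 43.5 and 45.2 TPM and Tspan32 at 17.3 and 15.9 TPM. Of the 25 other tetraspanins 5 were at 1 TPM or more in both libraries and 3 had 0 counts in both. Among 10 tetraspanin partners, 3 passed 1 TPM: the sheddase Adam10 (12.3 and 9.85 TPM), Ifitm2 (4.02 and 4.01 TPM) and Igsf8 (2.51 and 3.48 TPM).

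**Figure D2:**
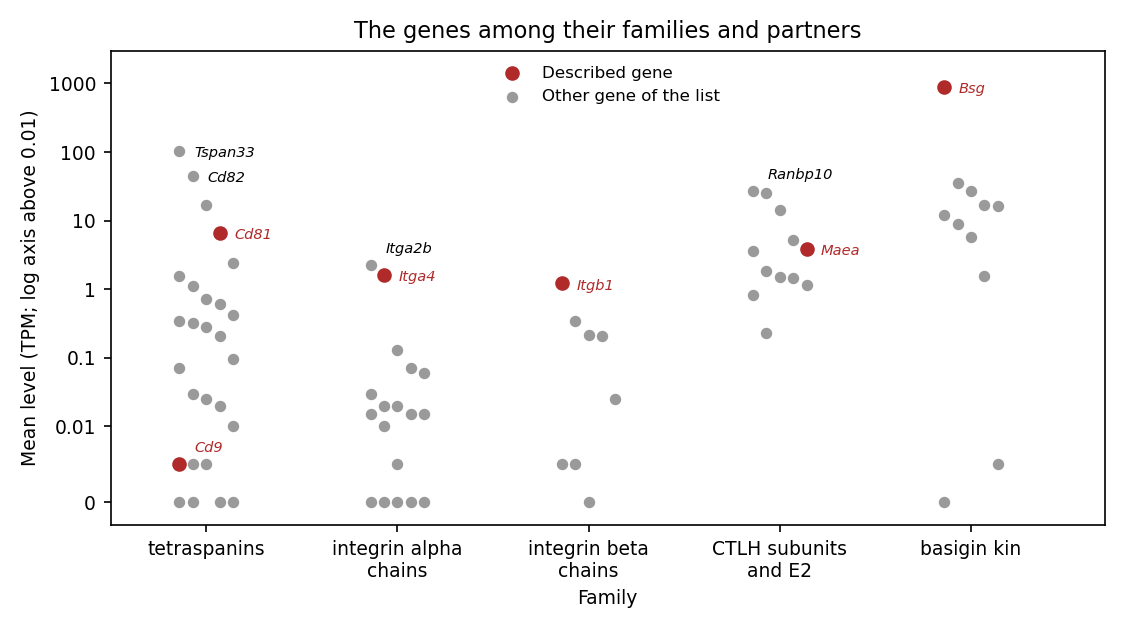
Mean TPM (vertical axis, logarithmic above 0.01) of each gene in 5 lists; the genes described here are red and labelled, and the leading other genes are labelled in black. Bsg and Itgb1 head their lists, Cd81 is below Tspan33 and Cd82, and Cd9 lies near 0.

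Maea encodes a protein first found at the contact of erythroblasts with macrophages and also known as a RING-domain subunit of the CTLH ubiquitin ligase. The gene (chromosome 5, 33335509 to 33373296) had 2.88 TPM (560 counts) in library 1 and 4.91 TPM (745 counts) in library 2, or 3.90 ± 1.44 TPM (SD, n = 2). Library 2 was the higher in both TPM and counts although it was the smaller library. Of the 11 other genes of the CTLH list, which includes its ubiquitin-conjugating enzyme, 9 were at 1 TPM or more in both libraries, with a median of 1.87 TPM. Ranbp10, a scaffold subunit, had 24.8 and 28.6 TPM, the conjugating enzyme Ube2h 29.5 and 21.1 TPM, and Wdr26 15.7 and 12.9 TPM. Rmnd5a, the RING partner of MAEA in the complex, had 1.07 and 1.22 TPM. Maea was 5 in the order of these 12 genes. Of the other 11, 1 was higher in library 2 past the exact binomial test described further on, 6 were higher in library 1 and 4 did not pass, where 22.9% and 22.0% of all genes tested were higher in library 2 and library 1.

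The integrin chains Itga4 and Itgb1 were the lowest of the 6 detected genes in TPM. They lay above 82.4% and 80.1% of protein-coding genes, but only 4296 of 21474 such genes reached 1 TPM in both libraries. The median of those detected was 5.02 TPM, above both chains. Itga4 (chromosome 2, 79255426 to 79333123) had 1.80 TPM (1140 counts) and 1.47 TPM (899 counts), or 1.64 ± 0.233 TPM (SD, n = 2). Itgb1 (chromosome 8, 128685654 to 128733200) had 1.35 TPM (422 counts) and 1.08 TPM (290 counts), or 1.22 ± 0.191 TPM (SD, n = 2). Itga4 was the higher in each library, by 1.33 times in library 1 and 1.36 times in library 2, and the libraries of the chains did not overlap. With globins left out of the total the means were 11.2 and 8.29 TPM, and in CPM, which is not corrected for length, 21.3 and 7.40. 

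Itgb1 led the beta chains and Itga4 came after Itga2b among the alpha chains by mean TPM. Of 7 other beta chains none reached 1 TPM in both libraries, Itgb7 being the highest of them at 0.26 and 0.43 TPM, then Itgb2 at 0.14 and 0.29 and Itgb5 at 0.14 and 0.28 TPM. Of 17 other alpha chains 1 passed, the platelet chain Itga2b at 1.78 and 2.72 TPM, so that Itga4 was level with it in library 1 and below it in library 2. Itga5, the fibronectin receptor chain, followed at 0.14 and 0.12 TPM and Itgal at 0.07 in each. The genes that activate integrins and link them to the cytoskeleton were better represented, with 8 of 18 at 1 TPM or more in both libraries. They were led by the kindlin Fermt3 (48.2 and 54.9 TPM), talin (Tln1, 17.9 and 21.8 TPM) and the parvin Parvb (6.43 and 7.74 TPM).

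The transcripts assigned to Itgb1 differed between the libraries. The coding transcript Itgb1-201 took 46.7% of Itgb1 TPM in library 1 and 83.9% in library 2, and Itgb1-202, annotated as a target of nonsense-mediated decay, took 53.3% and 16.1%. By expected counts Itgb1-202 held 195 of 422 reads in library 1 and 36.5 of 290 in library 2. Itgb1-202 lacks exon 4 of Itgb1-201, a stretch of 223 coding bases at chr8:128710253-128710475, which is not a multiple of 3. The transcripts also differ at both ends, the tables do not show which reads set the assignment, and the split was not tested. The junctions are shown on the plus strand, with the downstream exon in capitals, because they mark the exon in question.
Itgb1-201, exon 3 joined to exon 4: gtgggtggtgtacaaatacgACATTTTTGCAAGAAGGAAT
Itgb1-201, exon 4 joined to exon 5: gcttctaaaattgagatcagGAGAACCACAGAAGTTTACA
Itgb1-202, exon 3 joined to exon 5: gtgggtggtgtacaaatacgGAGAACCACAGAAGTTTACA
Counting only protein-coding transcripts, Itgb1 fell below 1 TPM in both libraries, at 0.63 and 0.90 TPM.

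Itga4 also had reads on non-coding transcripts. The coding Itga4-201, of 9767 bases, took 59.9% of Itga4 TPM in library 1 and 79.0% in library 2, but 89.0% and 94.6% of the expected counts. The processed transcripts Itga4-204 (1508 bases) and Itga4-205 (2314 bases) took 20.2% and 18.6% of TPM in library 1 and 3.67% and 16.0% in library 2. Their 48.6 and 70.9 reads in library 1 weigh more in TPM than in counts because the transcripts are short. On coding transcripts alone Itga4 had 1.08 and 1.16 TPM. Of the 6 genes with at least 50 counts in each library, 5 had the same leading transcript in both by TPM share, Itgb1 being the exception, and all 6 did by share of counts. For Cd24a and Maea, with 1 transcript each in the tables, this was fixed by the annotation.

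**Figure D3:**
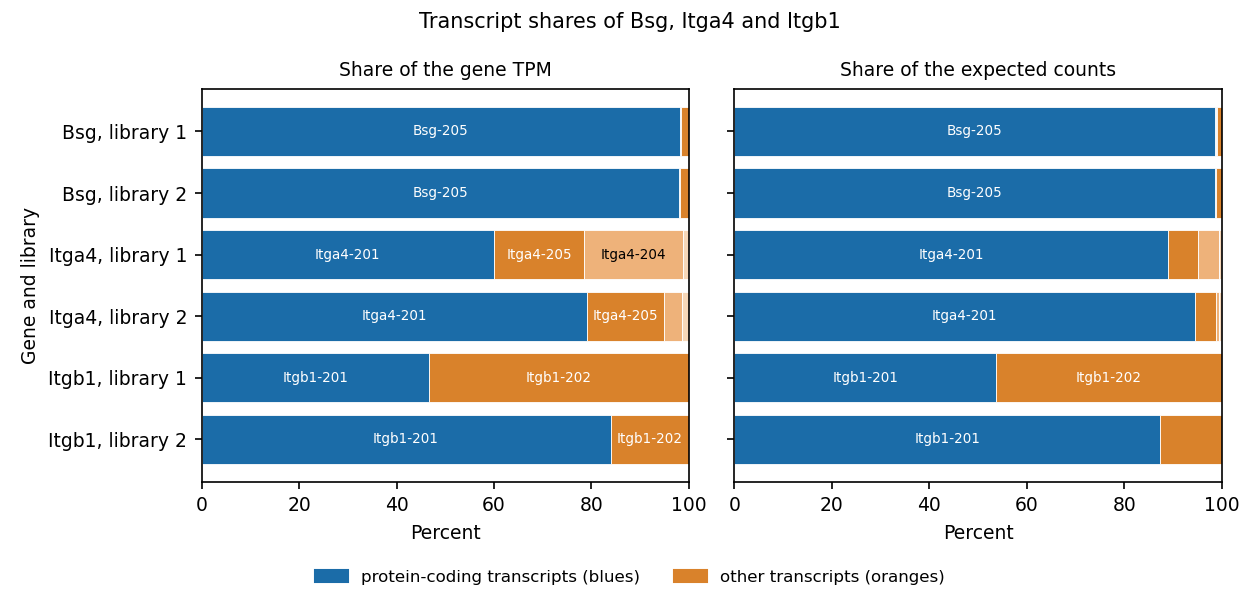
Percent of each gene's TPM (left) and of its expected counts (right) that falls to each transcript of Bsg, Itga4 and Itgb1 in each library; blues are protein-coding transcripts and oranges are others. Bsg is nearly all Bsg-205, and Itgb1-202 takes 53.3% of Itgb1 TPM in library 1 against 16.1% in library 2.

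Kit, Cd44 and Cd36, the markers of early stages among the 10, were represented by few reads. Kit (chromosome 5, 75574916 to 75656722) had 36 counts in library 1 (95% exact Poisson interval 25.2 to 49.8) and 9 in library 2 (4.12 to 17.1), or 0.07 and 0.02 TPM. Its deposited posterior mean TPM was 0.20 and 0.18, higher and nearly equal between the libraries. That measure stays above 0 without reads: Cd9, with 0 counts in library 2, had 0.05 there. The near equality for Kit is therefore not read as a result. Cd44 (chromosome 2, 102811141 to 102901665) had 41 counts (29.4 to 55.6) and 38 counts (26.9 to 52.2), or 0.09 and 0.11 TPM. Cd36 (chromosome 5, 17781690 to 17888801), which encodes a receptor for fatty acids and thrombospondin, had 37 counts (26.1 to 51.0) and 13 counts (6.92 to 22.2), or 0.11 and 0.05 TPM. Kit and Cd36 were lower in library 2 and their intervals did not overlap between the libraries, whereas those of Cd44 did. Intervals and limits of this kind cover counting error only. The deposited TPM values have 2 decimals, so at these levels the counts are the finer measure.

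The assignment of these few reads to transcripts was as follows, with no test of the split. All Kit reads were assigned to Kit-201, with 2937 coding bases, and 0 to Kit-204, whose coding part is 2925 bases. For Cd44, 41 and 37 reads went to Cd44-207 (5045 bases, 1731 of them coding) and 0 to Cd44-203, whose 1095 coding bases are the fewest of the coding Cd44 transcripts. The Cd36 reads went to Cd36-202 in library 1 and almost all to Cd36-203 in library 2, transcripts with the same number of coding bases, 1416.

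Other surface genes listed for progenitors were also under 1 TPM, while most of those listed as other erythroid surface genes, a list not built by stage, were not. Of 9 progenitor surface genes 0 reached 1 TPM in both libraries, where 4296 of the 21474 protein-coding genes did. The median of the list was 0.035 TPM, against 0.02 TPM over all protein-coding genes, and the list was not tested. The highest were the endothelial and progenitor receptor Eng (0.60 and 0.77 TPM), the interleukin 3 receptor chain Il3ra (0.32 and 0.55 TPM) and Csf2rb (0.26 and 0.32 TPM). Of 15 other erythroid surface genes 12 reached 1 TPM in both libraries, with a median of 7.33 TPM. They were led by the anion exchanger Slc4a1 (589 and 762 TPM), Icam4 (74.3 and 117 TPM), a ligand of macrophage integrins, and the erythropoietin receptor Epor (70.9 and 114 TPM). In the KIT list, which holds its ligand and signalling genes, 5 of 14 passed 1 TPM. They were led by the adaptors Shc1 (8.67 and 7.46 TPM) and Grb2 (3.58 and 3.83 TPM) and the kinase subunit Pik3r1 (3.06 and 2.32 TPM). The KIT ligand Kitl had 0 counts in both libraries. In the CD44 list 4 of 14 passed, led by Ezr (12.3 and 19.1 TPM), an ezrin-family linker of CD44 to actin, Rdx (2.53 and 2.43 TPM) and the hyaluronan-binding Hmmr (2.16 and 2.03 TPM). In the CD36 list 4 of 11 passed, led by its relative Scarb1 (7.14 and 13.0 TPM), Ppard (6.57 and 6.26 TPM) and Acsl1 (1.75 and 2.63 TPM).

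The libraries were compared gene by gene with a two-sided exact binomial test on scaled counts, which sets their difference against counting error and says nothing of conditions. Of the 10 genes 9 had the 10 counts needed for the test, Cd9 being left out. After Benjamini-Hochberg adjustment over 10955 genes, 5 of the 9 differed, against 44.9% of all genes tested, a share that does not set the 9 apart from genes at large. Of these, 1 was higher in library 2, against 22.9% of all genes, and 4 were higher in library 1, against 22.0%. Maea was higher in library 2 by 1.53 times (95% interval 1.37 to 1.71, adjusted exact p = 4.02e-13). Cd24a was higher in library 1 by 1.24 times (1.23 to 1.26, adjusted exact p = 8.34e-235), a small difference made visible by its many counts. Itgb1 was higher in library 1 by 1.27 times over all its transcripts (1.09 to 1.48, adjusted exact p = 0.00562), a call lost after the GC correction given below (adjusted exact p = 0.197). As assigned, its coding transcript Itgb1-201 went the other way, with 227 and 254 expected counts, and Itgb1-202 had 195 and 36.5. This assignment is an estimate and the split was not tested. Cd36 was higher in library 1 by 2.48 times (1.29 to 5.08, adjusted exact p = 0.0116) and Kit by 3.48 times (1.65 to 8.23, adjusted exact p = 0.00106).

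For the other 4 the difference did not pass the threshold. The ratio of library 2 to library 1 was 0.994 (0.985 to 1.00) for Bsg, 1.06 (0.958 to 1.17) for Cd81, 0.905 (0.829 to 0.989) for Itga4 and 1.06 (0.666 to 1.70) for Cd44, whose interval leaves room for a change of over 1.5 times either way. Among the 6 with at least 100 counts in each library, 3 differed (Cd24a, Maea and Itgb1), against 58.2% of 5256 such genes. Over those 5256 the median size of the log2 ratio was 0.21, and 10.1% of them had a larger one than Maea, at 0.57 with a pseudocount of 1 CPM. Cd24a (-0.31) and Itgb1 (-0.30) were exceeded in size by 33.3% and 34.9% of those genes. In TPM the order of the libraries was the same for Maea, Cd24a, Itgb1, Cd36 and Kit, whereas Bsg, level in scaled counts, was higher in library 2 by 0.15 on the log2 scale.

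**Figure D4:**
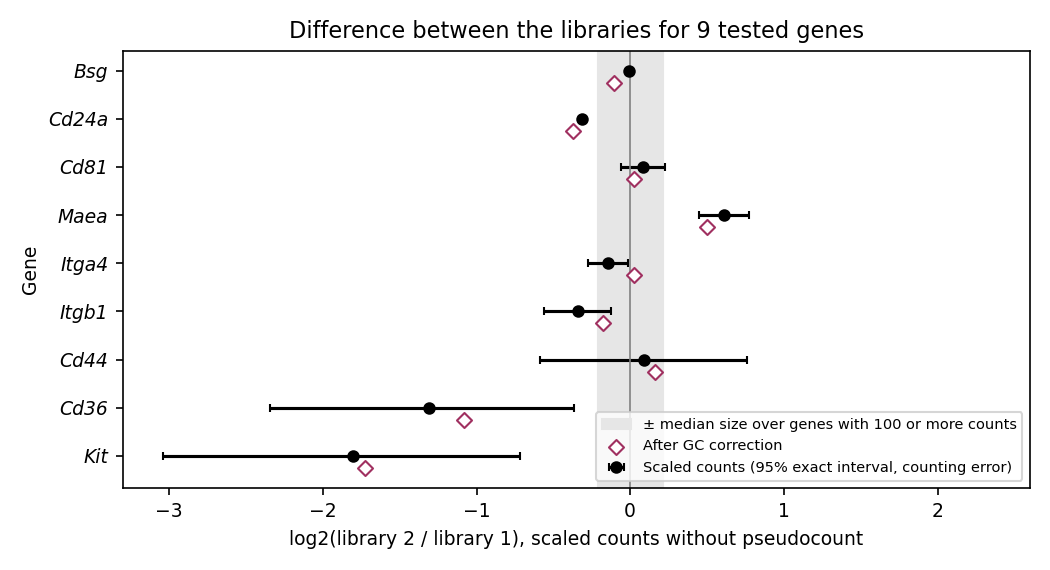
log2 ratio of library 2 to library 1 for the 9 genes tested, from scaled counts without pseudocount, with 95% exact intervals for counting error (black), and after GC correction (open diamonds); the grey band is the median size over the more abundant genes. Maea lies to the right of the band, and Kit and Cd36 far to the left with wide intervals.

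Genes around the described ones also differed between the libraries, in both directions. Of the tested integrin genes other than Itga4 and Itgb1, 1 alpha chain was higher in library 2 and 1 in library 1 of 6, and 3 beta chains of 4 were higher in library 2. These calls rest on few reads. The alpha chains were Itga9 (3 and 12 counts) and Itga6 (12 and 1 counts), at 0.03 TPM or less. The beta chains Itgb7, Itgb2 and Itgb5 lay at 0.43 TPM or less, on 83 counts or fewer per library. Itgb1 was lower in library 2 as a whole gene but higher in the TPM assigned to its coding transcript, at 0.63 and 0.90, a split that was not tested. Of 16 tested genes of integrin activation and linkage 6 were higher in library 2 and 3 in library 1. Of 16 tetraspanins 4 were higher in library 1 and the rest did not pass, and of 6 tetraspanin partners 1 was higher in each. Of 8 relatives and partners of basigin 3 were higher in library 2 and 4 in library 1. In the CD44 list 5 of 8 were higher in library 2 and 2 in library 1, in the CD36 list 3 and 2 of 8, and in the KIT list 1 and 4 of 13. Of 14 erythroid surface genes 6 were higher in library 2 and 4 in library 1, and of 14 genes of island ligands and macrophages 4 and 1. Of the 5 progenitor surface genes with enough counts, 0 passed by the exact binomial test after adjustment, and 1 had an unadjusted p under 0.05. In the CTLH list, as given with Maea, 1 of 11 was higher in library 2 and 6 in library 1. Over all genes tested the shares were 22.9% higher in library 2 and 22.0% in library 1, and no list was tested against them.

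The ratio between the libraries moved with GC content. The median log2 ratio of library 2 to library 1 was -0.21 over 641 genes with under 45% GC, -0.096 at 45 to 50%, 0.065 at 50 to 55% and 0.078 above 55%, for genes with at least 100 counts in each library. Of the 4 genes higher in library 1, Cd36 (39.6% GC), Itgb1 (44.2%) and Kit (47.1%) lay under 50% GC and Cd24a at 52.7%, while Maea, higher in library 2, had 54.6%. After the ratios were corrected by the medians of 20 GC bins, a step added after the data were seen, Itgb1 no longer passed (1.13 times higher in library 1, adjusted exact p = 0.197). Kit (3.31 times, adjusted exact p = 0.00191), Cd24a (1.29 times) and Maea (1.41 times higher in library 2) still passed, Cd36 did so barely (2.11 times, adjusted exact p = 0.050), and Bsg now passed as 1.07 times higher in library 1. The corrected test called 5 of the 9 genes, against 42.5% of all genes.

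Levels as well as ratios moved with GC content. Of protein-coding genes, 7.29% were detected under 45% GC, 16.6% at 45 to 50%, 25.6% at 50 to 55% and 32.0% above 55%. All 4 genes with 50% GC or more were detected (Bsg, Cd24a, Cd81 and Maea), and 2 of the 6 below it (Itga4 and Itgb1). GC content and mean TPM had a Spearman correlation of 0.636 over the 10 genes, against 0.299 over 21474 protein-coding genes; genes of 1 set of libraries are not replicates and no p is given. Among 4025 protein-coding genes within 2 percentage points of the GC content of Itga4 (45.2%), 10.4% had a higher mean TPM, against 17.6% of all protein-coding genes. For Itgb1 the shares were 11.1% of 3843 genes and 19.9%, and for Cd36 15.5% of 1993 genes and 40.0%. For Kit (42.1% and 43.7%) and Cd44 (37.5% and 38.6%) the comparison with genes of like GC content made little difference. For the genes of higher GC content the shares moved the other way, to 18.6% from 11.5% for Maea, to 12.5% from 8.48% for Cd81, to 0.489% from 0.340% for Cd24a and to 0.273% from 0.0931% for Bsg. The part of GC content in these levels was not tested.

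**Figure D5:**
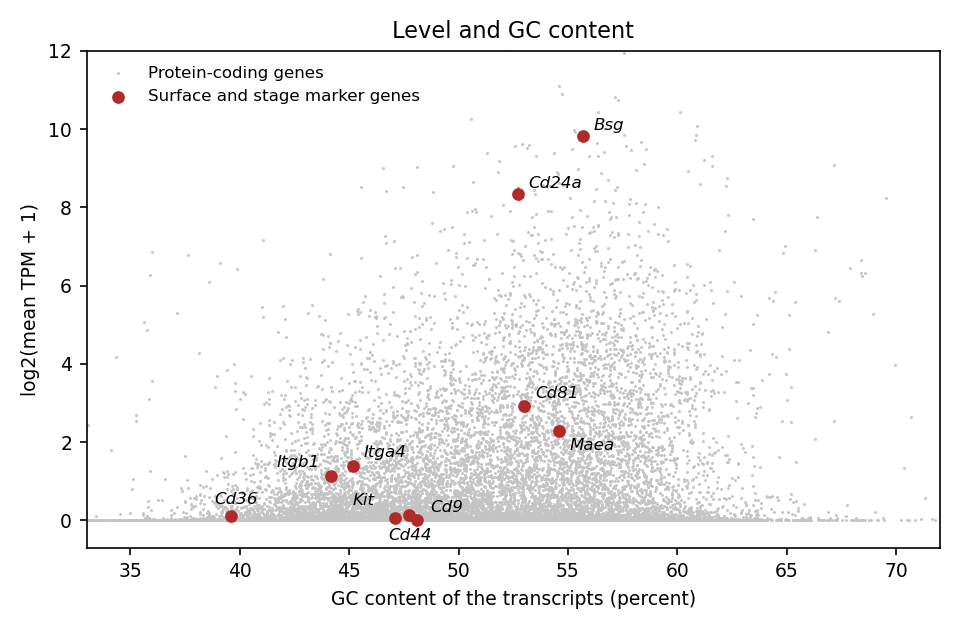
Mean level as log2(TPM + 1) against the GC content of the transcripts for protein-coding genes (grey) and the 10 genes (red). Bsg, Cd24a, Cd81 and Maea lie above 50% GC, and the 4 genes near 0 lie between 39.6% and 48.1%.

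Markers of the labelled cell type were abundant, and those of other fetal liver cell types were far lower, though some reached the levels of Cd81, Maea, Itga4 and Itgb1. All 8 erythroblast markers were at 1 TPM or more in both libraries, with a median of 312 TPM, headed by the globins Hba-a1 and Hbb-bs and by Slc4a1. Several of the described genes are also expressed by other cells, so the markers of those cells are given, and their part in the levels above was not tested. In these bulk samples fewer cells of a type and less RNA per cell cannot be told apart. Megakaryocyte and platelet markers, cells known for CD9, CD36 and integrins, summed to 11.6 and 14.7 TPM with 2 of 12 at 1 TPM or more, led by Gp9 (8.32 and 10.3 TPM), Itga2b and Vwf (0.36 and 0.77 TPM); Pf4 had 17 and 4 counts and Clec1b had 0. Mast cell and basophil markers, cells that keep KIT, summed to 1.40 and 2.08 TPM with 0 of 5 at 1 TPM, led by Hdc, Prss34 and Mcpt8. Their members went both ways: Cpa3 had 31 counts in library 1 and 3 in library 2, as Kit was higher in library 1, whereas Hdc had 39 and 74 and Prss34 had 30 and 69, and Fcer1a had 0.

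Island macrophages, the partners of these adhesion molecules, were also traced. Their 9 markers summed to 11.0 and 17.2 TPM, of which the complement chains C1qc (4.07 and 7.02 TPM), C1qa (3.47 and 4.53 TPM) and C1qb (2.59 and 4.18 TPM) made up most and were the only 3 at 1 TPM or more. Of the 8 tested, 3 were higher in library 2, as was Maea, against 22.9% of all genes; their part in the level of Maea was not tested. Vcam1, the ligand of the integrin of Itga4 and Itgb1, had 15 and 5 counts, Siglec1 17 and 22, Adgre1 11 and 7 and Cd163 2 and 0. In the wider list of island ligands and macrophage genes 4 of 17 passed 1 TPM, Dnase2a, a nuclease that digests expelled nuclei, being the highest at 5.07 and 9.65 TPM. Granulocyte markers summed to 9.74 and 11.1 TPM (3 of 6 passed, led by Mpo, Prtn3 and Elane) and hepatocyte markers to 13.7 and 16.0 TPM (3 of 6, led by Apoa1, Dlk1 and Afp). Endothelial markers summed to 2.90 and 3.17 TPM (1 of 7, Egfl7), B lymphoid markers to 0.28 and 0.33 TPM (0 of 5) and stromal markers to 0.21 and 0.18 TPM (0 of 6).

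Reads of the 10 genes were assigned without division between genes. Their expected counts were whole numbers, within 0.01, in both libraries, and the deposited posterior standard deviation of each gene's count was 0. Of the 31-base words in their annotated transcripts, 0% of those of Kit, Itgb1, Cd36, Maea and Bsg occur in transcripts of another gene, against 4.98% for Cd24a and 1.67% for Cd81. For Cd24a most of this, 4.28%, was with Gm6212. That gene was not among those counted, so no division of reads between it and Cd24a was possible. For Itga4 the share was 8.85%, mostly with Cerkl, an overlapping gene on the opposite strand that had 4 and 0 counts. For Cd9 it was 20.1%. As the strand setting of the counting is not stated, reads in such overlaps cannot be told apart.

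By level in both libraries, the protein-coding genes nearest to the described ones, measured as the distance in log2(TPM + 1) over the 2 libraries, were Blvrb for Bsg (distance 0.066), Pfn1 for Cd24a (0.15), Dbnl for Cd81 (0.016), Sin3b for Maea (0.033), Cnst for Itga4 (0.010) and Smarca5 for Itgb1 (0.0069). With 2 libraries this is a likeness of level and carries little information on pattern.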

How the data were processed

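Poly(A) RNA of 2 libraries of 1 group was analysed from gene and transcript tables. Per the deposited listing, alignment was to mm10 with GENCODE M4; the column names are those that RSEM writes, per the file headers, and no source used here states the quantifier, its version or its strand setting. The deposited expected counts are estimates per gene or transcript, and totalled 51190552 and 44256272 after rounding. The authors' TPM values are corrected for length, their FPKM values and posterior mean values served as alternatives, and the deposited percent of gene TPM per transcript gave transcript shares. Symbols came from a table of gene names (42462 matched), and positions, biotypes, GC content (mean over transcripts) and sequences from GENCODE M21, also mm10.

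CPM is expected counts scaled to the same total in each library. Counts were rounded and scaled by TMM in edgeR 4.0.16 (R 4.3.3; factors 0.996 and 1.00, over 9043 genes). Libraries were compared with an exact conditional binomial test over genes with 10 or more counts, adjusted by Benjamini-Hochberg, threshold 0.05. The test was tried on simulated Poisson counts, which hold counting error only. That trial cannot show how the test performs where libraries differ by more than counting error. Ratios in log2 used a pseudocount of 1 CPM. DESeq2 1.42.0 size factors, total counts, other minima, pseudocounts and units were tried. Members and lists were chosen with earlier results of these data known. All 10 members and the 3 highest genes of each list were to be named; others were chosen after their values were seen. Other steps used Python 3.11.15, numpy 2.4.6, pandas 2.3.3, scipy 1.17.1 and matplotlib 3.10.9.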

Additional observations from a re-analysis of the deposited data

How the results depend on the processing

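The number of genes at the detection threshold was 6 of 10 in either library alone, in posterior mean TPM and at 0.5 TPM. It was 5 on protein-coding transcripts, 4 at 2 TPM and 3 at 5 TPM. In FPKM, in CPM and without globins it was also 6. The cut-off stayed at 1 in those units, in which each gene's mean was higher than in TPM, so they were laxer settings. The number that differed between the libraries was 5 with total counts, posterior mean counts, a minimum of 1 count and GC correction, 4 at a minimum of 50 counts, where Kit is no longer tested, and 7 with DESeq2 size factors, which also called Bsg (log2 ratio -0.023, adjusted exact p = 0.00327) and Itga4 (-0.15, adjusted exact p = 0.0346). The direction for Bsg was not stable: its log2 ratio was -0.0088 as reported, 0.0022 with total counts, 0.15 in TPM and -0.10 with GC correction. Itga4 turned from -0.14 to 0.026 with GC correction. Itgb1 lost its call with GC correction (-0.16). No test was redone for other pseudocounts or for TPM. The cause was not tested. Neighbours in the order of level were separated in 6 to 8 of 9 pairs; posterior mean TPM placed Kit above Cd44, and CPM placed Itga4 above Cd81. With 2 libraries, leaving 1 out removes their comparison, so it could not be run. No paired analysis was possible because the series has a single group. Of the alternative levels 34 moved by more than the spread between the libraries and 36 did not, but these counts were largely fixed in advance. FPKM, CPM and TPM without globins are scales other than TPM, and without globins all 10 moved. With 1 library left out the change from the mean is always smaller than the spread, so no such level could move. Kit had a mean of 0.19 in posterior mean TPM against 0.045 TPM. Few counts limit Kit, Cd44, Cd36 and Cd9.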

Other observations

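Embigin (Emb), a close relative of basigin that also escorts monocarboxylate transporters, was looked at after its values were seen. It had 539 counts in library 1 and 76 in library 2, or 2.61 and 0.47 TPM, and was 6.18 times higher in library 1 by scaled counts (adjusted exact binomial p = 4.97e-72), while Bsg had a ratio of 0.994. Slc7a5 was 1.61 times higher in library 2 by scaled counts but had 13.0 and 41.6 TPM, so the size of its difference depends on the unit.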
